A study of Mus musculus with 36 samples.

Results

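A set of 9 transcriptional targets of p53 was followed through all 36 libraries of a SLAM-seq experiment in mouse embryonic stem cells (mES cells). SLAM-seq marks newly made RNA with the uridine analogue 4-thiouridine (4sU), which is read as a T-to-C mismatch after treatment with iodoacetamide. The genes were found in the tables by symbol: Cdkn1a, Mdm2, Ccng1, Trp53inp1, Bbc3, Zmat3, Btg2, Phlda3 and Bax. All 9 had a row in each of the 6 tables of the study (3 lines, 2 replicates), among 18419 genes common to the tables and 22979 found in any. All 9 passed the filter on low counts in every comparison of read counts. In mm10 (GENCODE M21) the genes are all protein coding, among them Cdkn1a at chr17:29090976-29100727 on the plus strand, Mdm2 at chr10:117688875-117710758 on the minus strand, Btg2 at chr1:134075170-134079120 on the minus strand and Bax at chr7:45461697-45466898 on the minus strand, and values are sums over each gene.

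p53 is a transcription factor that the ubiquitin ligase Mdm2 keeps at a low level by sending it to the proteasome. DNA damage and stress of the nucleolus release p53 from Mdm2, and p53 then raises genes that arrest the cell cycle, start apoptosis and, through Mdm2 itself, limit its own activity. Prolonged exposure to 4sU at high concentration is known to disturb ribosomal RNA synthesis and to activate p53, and the targets are therefore a common check for stress in labelling experiments. Here the question was how these genes behave after the pulse and when METTL3, YTHDC1 or ZCCHC8 is depleted. METTL3 carries the methyltransferase activity that places N6-methyladenosine on RNA, YTHDC1 reads that mark in the nucleus, and ZCCHC8 belongs to the NEXT complex, a nuclear adaptor of the RNA exosome.

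Each of the 3 lines is 1 clone (METTL3 12D, YTHDC1 Y12H, ZCCHC8 Z12H) in which the named protein carries the FKBP12 F36V degron tag, and dTAG-13 sends the tagged protein to degradation. The Ctrl arm received no dTAG-13, and the dTAG arm received it from 2 h before Xist induction. Cells of both arms were Cast x 129S hybrids with Xist under a TetOn promoter on the 129S allele, and doxycycline (1 µg/ml) was given to all of them 20 h ahead of the 4sU (500 µM, 4 h) and kept through it. Label was then chased with 50 mM uridine, and cells were taken at 0, 90 or 180 min. The 18 groups of line, arm and chase time had 2 replicates each, so a line and arm together had 6 libraries. Every library had 4sU and doxycycline, so neither can be compared with its absence in these data.

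Libraries held 5274684 to 18652000 reads, the ZCCHC8 line having the shallowest (5274684 to 10257631). Trp53, the gene of p53 itself, set some libraries apart. In the METTL3 line it was at 40.9 to 119 CPM (reads of the gene scaled to a common library total) in 5 of the 6 libraries of replicate 1 and at 385 CPM in the other (Ctrl, 0 min), against 166 to 394 CPM in replicate 2. In the YTHDC1 line it was at 101.5 to 147.8 CPM in replicate 1 and 230.4 to 338.5 CPM in replicate 2, with no overlap. The ZCCHC8 line held 334.9 to 514.5 CPM in all 12 libraries. Bbc3 stood apart by replicate in the METTL3 line, at 4.96 to 15.1 CPM in all 6 libraries of replicate 1 and 27.6 to 38.8 CPM in replicate 2. Results were therefore also computed without either replicate. Such a fit holds 1 library per line, arm and chase time, so its p-values and calls do not measure the spread between replicates. Pou5f1, which defines pluripotent cells, was at 379 to 1067 CPM. The feeder fibroblasts had been removed by preplating, and their 10 marker genes summed to 28.1 to 63.1 CPM, of which Fbn1 made 17.7 to 40.8 CPM. Col1a1 was at 1.11 to 7.76 CPM, and Lum was at 0 in 22 libraries. The degron acts on protein, so the transcript of the tagged gene is no check of depletion. Mettl3 and Zcchc8 did not pass the test in their own lines. Ythdc1 was higher in dTAG libraries of its own line (log2 fold change 0.60, SE 0.095, edgeR adjusted p = 0.0049). It was also higher with dTAG in the METTL3 line (0.61, SE 0.12, adjusted p = 0.0054).

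p53 binds DNA at a response element, and the promoters of the 9 genes were searched for its letters. RefSeq promoter windows (250 bases before to 50 after a start, GRCm38.p6, the assembly of mm10) were given for 7 of the 9 genes, Zmat3 and Trp53inp1 having none. The element is a pair of copies of a consensus decamer, which reads the same on both strands. A decamer without mismatch was found in the windows of 4 of the 7 genes, against 9.554% of 27025 genes with a window. The stretches that hold it are shown in the direction of the gene with the decamer in capitals, because these are the letters that p53 is known to recognise. They describe the windows and are no evidence of binding in these cells.
Cdkn1a, chr17:29090896-29090925, plus strand, decamer from 73 bases before the start: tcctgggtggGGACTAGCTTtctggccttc
Cdkn1a, chr17:29090918-29090947, plus strand, decamer from 51 bases before the start: tggccttcagGAACATGTCTtgacatgttc
Mdm2, chr10:117710925-117710954, minus strand, decamer from 186 bases before the start: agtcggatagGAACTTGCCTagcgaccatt
Ccng1, chr11:40755452-40755481, minus strand, decamer from 185 bases before the start: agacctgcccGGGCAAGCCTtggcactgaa
Bax, chr7:45467080-45467109, minus strand, decamer from 201 bases before the start: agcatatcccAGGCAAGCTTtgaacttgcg

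A pair of decamers with at most 3 mismatches in all and at most 13 bases between them was found for Cdkn1a, Bax and Bbc3, 3 of 7 genes, against 7.626% of all genes with a window. Bbc3 had no perfect decamer, and its pair had 3 mismatches and no gap. It is shown, with the core letters of each decamer in capitals, as the weakest match among the 3.
Bbc3, chr7:16309486-16309505, plus strand, from 97 bases before the start: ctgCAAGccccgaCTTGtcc
The windows of Btg2 and Phlda3 held neither form. Cdkn1a and Bbc3 also had windows at other starts, and these held neither form. They lay at chr17:29093519-29093818 for Cdkn1a, and at chr7:16310011-16310310 and chr7:16310181-16310480 for Bbc3. Distances above are from the start of the window that holds the site.

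All 9 genes were expressed in every library, and their levels were compared with each other per kilobase of the deposited gene length, in the 18 Ctrl libraries. Ccng1, an atypical cyclin that recruits a phosphatase, was highest, at 401 ± 87.1 CPM per kb (SD, n = 18), and Mdm2 followed at 331 ± 59.2. The ranges of this pair overlapped, 306 to 591 for Ccng1 and 250 to 437 for Mdm2. Trp53inp1, a nuclear cofactor of p53 with a role in autophagy, was at 182 ± 50.1 CPM per kb, and Bax, which forms pores in the mitochondrial membrane, was at 148 ± 27.5. These neighbours also overlapped in range. Btg2, an antiproliferative protein that recruits a deadenylase, and Phlda3, a repressor of Akt, were at 88.2 ± 13.8 and 79.0 ± 13.1 CPM per kb. Their ranges overlapped (57.5 to 108 and 59.2 to 103), and Btg2 had the higher mean in each line. Cdkn1a, the inhibitor of cyclin-dependent kinases known as p21, was at 35.9 ± 7.46 CPM per kb. Zmat3, a zinc finger protein that binds RNA, and Bbc3, the BH3-only protein PUMA, were lowest, at 16.6 ± 3.25 and 15.8 ± 5.80. The median of 13674 genes on this scale was 8.08, and the 9 genes lay between the 65.9th percentile (Bbc3) and the 99.2nd (Ccng1). Levels of Bax are uncertain by the share of an overlapping gene on the same strand (Gm45808), and those of Cdkn1a by an overlapping gene on the other strand, since the use of strand in counting was not stated.

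**Figure D1:**
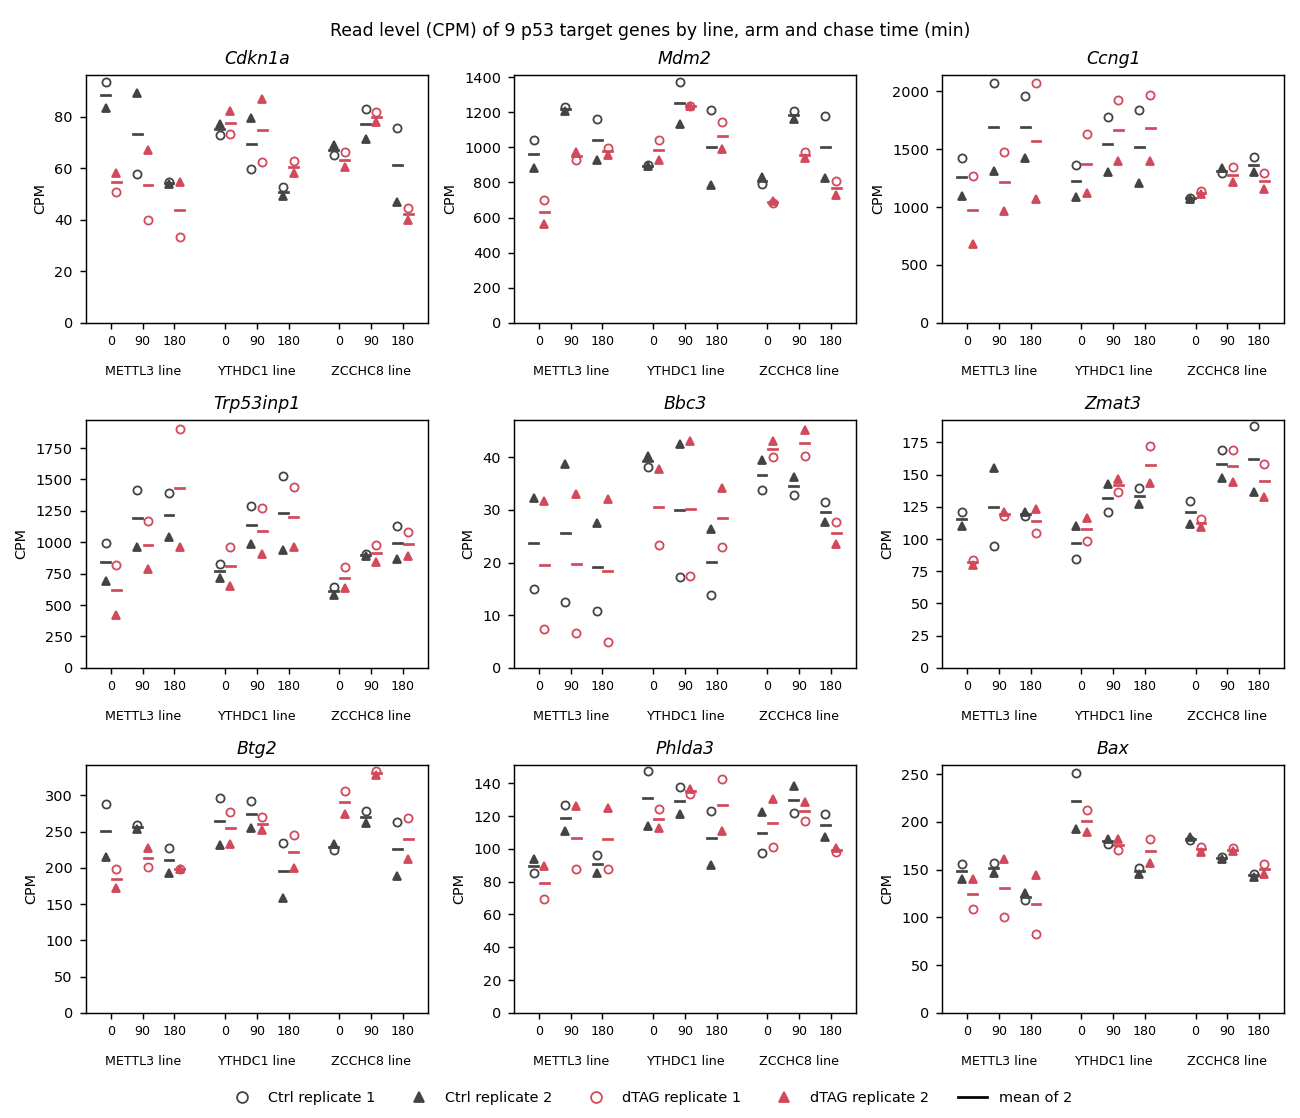
Read level of each of the 9 genes (y axis, CPM from 0) in all 36 libraries, by line and chase time in min (x axis), with Ctrl in grey, dTAG in red, replicate 1 as open circles, replicate 2 as filled triangles and the mean of 2 as a bar. Bbc3 in the METTL3 line separates by replicate (4.96 to 15.1 against 27.6 to 38.8 CPM), and Btg2 in the ZCCHC8 line is higher in dTAG than in its Ctrl partner in 6 of 6 pairs.

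Levels in the Ctrl arms were compared between the 3 lines. The lowest, median and highest of 6 Bax levels were 118, 143.5 and 157 CPM for METTL3, 146, 179.5 and 252 CPM for YTHDC1 and 142, 162 and 184 CPM for ZCCHC8, and all 3 ranges overlapped. Bax was lower in METTL3 than in YTHDC1 Ctrl libraries (log2 fold change -0.37, SE 0.074, edgeR adjusted p = 0.015), the only call among the 9 where 2.36% of 14619 genes were called. Without replicate 2 that call was lost (adjusted p = 0.083). Between ZCCHC8 and YTHDC1 none of the 9 was called (14.0% of all genes), and 2 had an unadjusted p under 0.05, Zmat3 and Trp53inp1, as had 36.8% of all genes. Between ZCCHC8 and METTL3 there were 3 calls (30.1% of all genes): Trp53inp1 was lower in ZCCHC8 (-0.36, SE 0.13, adjusted p = 0.044), and Phlda3 and Bax were higher (0.27 and 0.23, adjusted p = 0.043 and 0.027). Of these, Trp53inp1 lost its call with RLE normalization (adjusted p = 0.056), Phlda3 without the filter on low counts (0.063), and Phlda3 and Bax without replicate 2 (0.18 and 0.080). With replicate number as a block the calls in these 3 comparisons were 2, 3 and 6, where 14.2%, 46.6% and 53.5% of all genes were called. Each line is 1 clone, so line and clone cannot be told apart.

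Depletion of METTL3 gave no call among the 9 genes in the fit without the replicate block, with 6 dTAG against 6 Ctrl libraries, where 19.9% of 14658 genes were called, 8.73% as lower. DESeq2 called 2 of the 9 and 24.8% of all genes. By edgeR 3 of the 9 had an unadjusted p under 0.05 (Mdm2, Btg2 and Cdkn1a), as had 33.4% of all genes. Every log2 fold change was below 0 with both replicates in the fit, from -0.02 for Phlda3 to -0.48 for Cdkn1a, and Trp53inp1, Phlda3 and Bax turned their sign when 1 replicate was left out. The 9 had a median of -0.23 against 0.01 over all genes tested. Replicate numbers paired the libraries, and with the number as a block 5 genes fell, where 23.9% of all genes were called as lower and 48.2% in either direction. The fit with the block still counts the chase libraries of a replicate and arm as separate. With the chase times pooled, none of the 9 had arms free of overlap. dTAG was below its Ctrl partner of the same replicate and time in 42 of 54 pairs. These are the 9 genes read in the same 6 pairs of libraries, so they are not independent. For both counts the share over all genes was not computed.

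Among the genes of cell cycle arrest, Cdkn1a in the METTL3 line had a lowest, median and highest level of 54.0, 70.6 and 93.4 CPM in Ctrl, and of 33.2, 52.8 and 67.2 CPM with dTAG. At the end of the pulse both Ctrl libraries (93.4 and 83.4 CPM) were above both dTAG libraries (50.9 and 58.1 CPM). The 93.4 CPM is from the replicate 1 library that Trp53 set apart (385 CPM, against 91.2 CPM in its dTAG partner). At 180 min dTAG replicate 2 (54.7 CPM) was level with its Ctrl (54.0 CPM). The log2 fold change of Cdkn1a was -0.48 (SE 0.18, edgeR adjusted p = 0.093) and -0.50 with the block (SE 0.12, adjusted p = 0.0014). Btg2 was at 193, 240.5 and 288 CPM without and 172, 198 and 227 CPM with dTAG, lower in 5 of 6 pairs. Its log2 fold change was -0.25 (SE 0.11, adjusted p = 0.12) and the same with the block (adjusted p = 0.020). Ccng1 spanned 1095 to 2075 CPM (median 1422) in Ctrl and 680.2 to 2074 CPM (median 1170) with dTAG. It was not called without the block (-0.31, SE 0.21, adjusted p = 0.35) and was with it (-0.34, SE 0.085, adjusted p = 0.0025). In replicate 1, Ccng1 rose from 1269 CPM at 0 min to 2074 CPM at 180 min in the dTAG arm, above its Ctrl partner (1963 CPM), while the other 5 pairs were lower in dTAG.

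Mdm2, the ligase that limits p53, in the METTL3 line spanned 882 to 1229 CPM (median 1102) in Ctrl and 561 to 997 CPM (median 943) with dTAG. The pulse end held the widest gap, with 1040 and 882 CPM in Ctrl against 699 and 561 CPM in dTAG. The log2 fold change of Mdm2 was -0.35 (SE 0.12, edgeR adjusted p = 0.056), -0.34 with the block (adjusted p = 0.0027), and it was called by DESeq2, as was Cdkn1a. Trp53inp1 spread from 691 to 1419 CPM in Ctrl and from 420.5 to 1903 CPM with dTAG, and passed neither fit (-0.15 and -0.19).

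Bbc3 and Bax, which act in apoptosis, went apart by replicate in the METTL3 line. Bbc3 was at 15.1, 12.4 and 10.9 CPM in Ctrl and 7.41, 6.61 and 4.96 CPM with dTAG in replicate 1 (0, 90 and 180 min), and at 32.2, 38.8 and 27.6 against 31.7, 33.0 and 32.0 CPM in replicate 2. All 3 pairs of replicate 1 were lower in dTAG, and in replicate 2 dTAG was lower at 0 and 90 min and higher at 180 min. The fold change of Bbc3 was -0.23 (SE 0.57) and -0.43 with the block (SE 0.15, adjusted p = 0.027), and it was -0.97 without replicate 2. Bax had a sign of its own in each replicate, with a mean pair difference of -0.56 on the log2 scale in replicate 1 and 0.11 in replicate 2. Phlda3 did too, at -0.32 and 0.22. Without replicate 1 there were 6 calls (Cdkn1a, Ccng1, Trp53inp1, Zmat3 and Btg2 lower, Phlda3 higher at 0.22), where 51.0% of all genes were called. Without replicate 2 there were 5 (Cdkn1a, Mdm2, Bbc3, Btg2 and Bax, all lower), where 39.2% of all genes were called. Of these, Cdkn1a and Btg2 were called in both. Trp53 had a log2 fold change of -0.93 in this line (SE 0.51, adjusted p = 0.24), and its part in these values was not tested. With the 3 chase libraries of a replicate and arm summed (2 against 2) no gene of the whole table was called in this line or in YTHDC1.

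**Figure D2:**
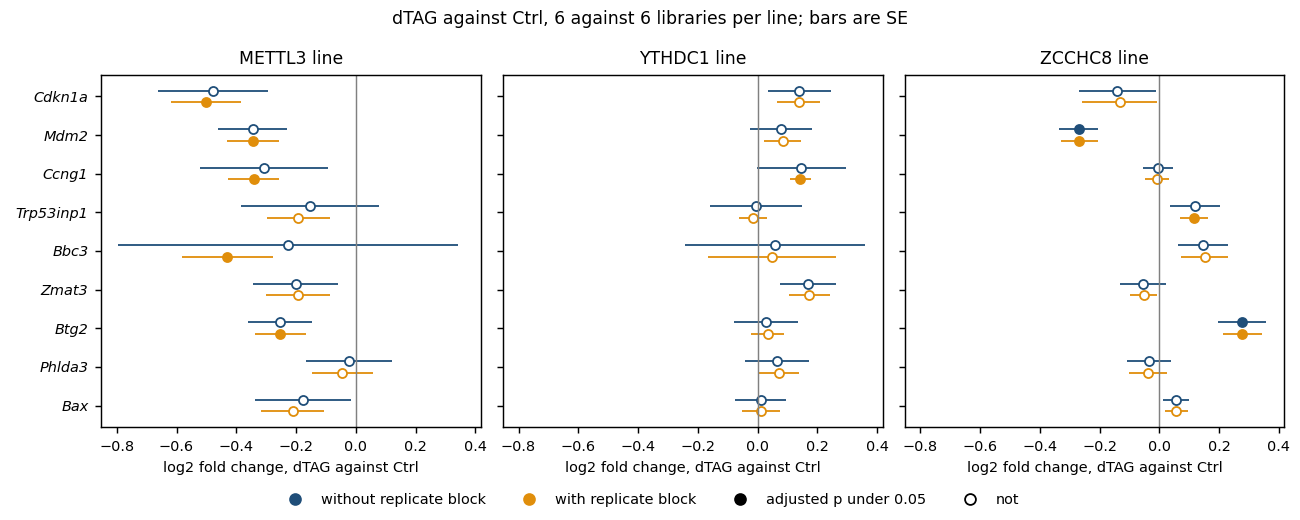
Log2 fold change of dTAG against Ctrl (x axis) for each gene (y axis) in the 3 lines, with SE bars, without (blue) and with (orange) the replicate number as a block; filled points have an adjusted p under 0.05. In the METTL3 line all values are below 0 and 5 points are filled with the block, and in the ZCCHC8 line Mdm2 (-0.27) and Btg2 (0.28) are filled in both.

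Depletion of YTHDC1 left no call among the 9 genes, where 5.1% of 14442 genes were called, and none had an unadjusted p under 0.05 by edgeR or a call by DESeq2. The log2 fold changes ran from -0.00 (Trp53inp1) to 0.17 (Zmat3), with SE from 0.086 (Bax) to 0.30 (Bbc3). Cdkn1a spanned 49.2 to 79.4 CPM (median 66.3) in Ctrl and 58.0 to 87.0 CPM (median 68.0) with dTAG. The arms overlapped over most of their range, although each of the 6 dTAG libraries was above its Ctrl partner. Ccng1 and Zmat3 were also above in 6 of 6 pairs. Ccng1 was the single call with the block (0.14, SE 0.035, edgeR adjusted p = 0.0044), where 26.9% of all genes were called. Without replicate 1 there were 2 calls, Mdm2 (0.16) and Ccng1 (0.11), where 23.9% of all genes were called, and without replicate 2 there were none.

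Depletion of ZCCHC8 moved 2 of the 9 genes in opposite directions, where 39.6% of 14227 genes were called, 19.5% as lower and 20.1% as higher. Mdm2 fell, from 789, 997 and 1209 CPM (lowest, median, highest) in Ctrl to 682, 769.7 and 974 CPM with dTAG. Each pair was lower in dTAG, with 681.8 against 789 CPM in replicate 1 and 693 against 829 CPM in replicate 2 at 0 min. The log2 fold change of Mdm2 was -0.27 (SE 0.065, edgeR adjusted p = 0.0027). Btg2 rose, from 189, 248 and 278 CPM in Ctrl to 212, 290.1 and 334 CPM with dTAG, and was higher in 6 of 6 pairs. At 0 min Btg2 was at 225 and 233 CPM in Ctrl and at 305 and 275 CPM with dTAG, and at 90 min at 278 and 262 against 334 and 327 CPM, so the arms were apart at both times and overlapped at 180 min. Its log2 fold change was 0.28 (SE 0.081, adjusted p = 0.013). Both calls were kept under every alternative that was run, with either replicate left out too. The other 7 genes had log2 fold changes from -0.14 (Cdkn1a) to 0.15 (Bbc3), and Zmat3 was lower in 6 of 6 pairs at -0.06 (SE 0.077, adjusted p = 0.61). With the block Trp53inp1 was called too (0.12, SE 0.046, adjusted p = 0.042), where 45.7% of all genes were called.

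Whether a response differed between lines was tested as an interaction of line and arm over all 36 libraries, and the comparisons share libraries with each other. The response of Cdkn1a was lower in the METTL3 than in the YTHDC1 line (log2 difference -0.63, SE 0.21, edgeR adjusted p = 0.030), and so was that of Mdm2 (-0.44, SE 0.14, adjusted p = 0.022), where 20.2% of 15346 genes were called. The 2 genes became 5 with the block (42.2% of all genes), the others being Ccng1 (-0.51), Zmat3 (-0.38) and Btg2 (-0.31). Cdkn1a was called without either replicate, and Mdm2 lost its call without replicate 1 (adjusted p = 0.066). Between ZCCHC8 and YTHDC1 the response of Mdm2 differed by -0.41 (SE 0.14, adjusted p = 0.047), where 14.3% of all genes were called. That value was not past the threshold with RLE normalization (adjusted p = 0.0998), without the filter on low counts (0.099), without replicate 1 (0.15) or without replicate 2 (0.099), and had an adjusted p of 0.0046 with the block, where 32.0% of all genes were called. Between ZCCHC8 and METTL3 Btg2 differed by 0.49 (SE 0.15, adjusted p = 0.014), where 23.4% of all genes were called. The block added Ccng1 (0.30, adjusted p = 0.0046; 43.1% of all genes).

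The level of the targets was also followed from the end of the pulse into the chase in the 18 Ctrl libraries, with line as a factor. At 180 min 3 of the 9 genes had risen and 2 had fallen, where 26.2% of 14619 genes were called as higher, 24.1% as lower and 50.3% in all. Trp53inp1 was at 578, 703 and 990.2 CPM (lowest, median, highest of 6) at 0 min and at 866, 1084 and 1526 CPM at 180 min, and rose in each of 6 pairs (log2 fold change 0.67, SE 0.13, edgeR adjusted p = 3.66e-04). Ccng1 went from a median of 1092 CPM to 1426 CPM and rose in 6 of 6 pairs as well (0.39, SE 0.12, adjusted p = 0.014). Zmat3 rose by 0.34 (SE 0.13, adjusted p = 0.036), in 5 of 6 pairs. The ranges of these 3 genes at 0 and 180 min overlapped.

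Cdkn1a and Bax were the genes that fell. Cdkn1a was at 65.2, 75.2 and 93.4 CPM at 0 min and 47.0, 53.3 and 75.8 CPM at 180 min, lower in 5 of 6 pairs (-0.44, SE 0.14, edgeR adjusted p = 0.013). The exception was replicate 1 of the ZCCHC8 line, where it went from 65.2 to 75.8 CPM. Bax fell in 6 of 6 pairs, from a median of 182.5 CPM to 144 CPM (-0.37, SE 0.074, adjusted p = 4.74e-04). Mdm2 (0.23, adjusted p = 0.087), Bbc3 (-0.50, 0.18), Btg2 (-0.21, 0.13) and Phlda3 (-0.04, 0.72) did not pass. With the block all but Phlda3 passed, each in the direction given, where 65.2% of all genes were called. Without replicate 2, Cdkn1a (adjusted p = 0.12) and Zmat3 (0.0504) lost their calls, and Mdm2 and Bbc3 gained one. Bax and Cdkn1a were called without replicate 1.

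At 90 min Mdm2 and Trp53inp1 were the genes that had changed, where 14.5% of all genes were called and 10.1% as higher. Mdm2 was at 789, 887 and 1040 CPM at 0 min and 1132, 1208 and 1375 CPM at 90 min, with no overlap between the times (log2 fold change 0.45, SE 0.11, edgeR adjusted p = 0.0082). At 180 min it spread from 787 to 1214 CPM. Trp53inp1 rose by 0.53 (SE 0.13, adjusted p = 0.0095). Both rose in 6 of 6 pairs, and the block added Ccng1 (0.33), Zmat3 (0.30) and Phlda3 (0.21), where 33.5% of all genes were called. The alignment kept reads up to a limit of mismatches, so reads with many conversions can be lost when label is high. In Cdkn1a the T-to-C rate per covered T fell from 6.30 to 10.0% at 0 min to 1.04 to 2.19% at 180 min, and in Mdm2 from 7.36 to 11.1% to 1.86 to 3.10%, and the part of this in the levels was not tested.

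The share of new RNA gives a second readout that does not depend on the library total. GRAND-SLAM deposits it as the new-to-total ratio, the maximum of its posterior (MAP), printed here as a percent. At the end of the pulse 8 of the 9 genes consisted largely of new RNA in Ctrl libraries. Mdm2 was at 94.6 to 100% in 6 libraries, Btg2 at 92.1 to 99.6%, Phlda3 at 90.2 to 98.7%, Cdkn1a at 88.3 to 100%, Trp53inp1 at 87.8 to 97.7% and Bbc3 at 87.2 to 100%. Zmat3 (77.2 to 86.4%) and Ccng1 (79.3 to 85.5%) lay below. Bax stood far below the rest, at 39.9 to 48.3%, in the company of Trp53 itself (20.95 to 31.2%), while Pou5f1 was at 12.3 to 14.6%.

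Over the chase the new-to-total ratio fell furthest for Cdkn1a. In Ctrl libraries its ratio at 180 min was 31.0 ± 8.19% of the ratio at 0 min (SD, n = 6, 2 replicates of 3 lines). The MAP ratio of Cdkn1a at 180 min was 28.3% (posterior interval of 90%, 25.1 to 31.8%) and 27.1% (23.6 to 31.0%) for METTL3, 27.4% (24.6 to 30.5%) and 20.0% (17.1 to 23.2%) for YTHDC1, and 45.1% (41.4 to 48.9%) and 32.8% (28.2 to 37.8%) for ZCCHC8. Replicates of YTHDC1 and of ZCCHC8 thus differed by more than these intervals, which cover counting error only. Bbc3 was at 38.4 ± 5.87%, Btg2 at 38.9 ± 6.86%, Phlda3 at 44.8 ± 8.48% and Mdm2 at 46.6 ± 7.58%. Their ranges overlapped, but the SD holds differences between lines that the genes share. Phlda3 was above Btg2 in both Ctrl replicates of each line. Trp53inp1 was at 60.2 ± 9.17%, Zmat3 at 69.2 ± 9.93% and Ccng1 at 72.3 ± 8.51%. A ratio also falls as unlabelled RNA is made, so these are not shares of labelled RNA kept. Mean new RNA (CPM times ratio) at 0, 90 and 180 min was 690, 823.5 and 636.5 CPM for Trp53inp1. It was 90.6, 97.6 and 79.1 CPM for Zmat3 and 966, 1104 and 892 CPM for Ccng1, so all 3 were highest at 90 min. The slope of log2 MAP ratio in Ctrl was -0.59 per h for Cdkn1a with METTL3 tagged, -0.68 with YTHDC1 and -0.46 with ZCCHC8, against medians over all genes tested of -0.08, -0.11 and 0.04.

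Bax went the other way. Its ratio at 180 min was 117 ± 10.97% of that at 0 min, and it was above the 0 min ratio in all 6 Ctrl pairs (103 to 131%). Trp53 (162 ± 23.2%) and Pou5f1 (124 ± 9.05%) also had a higher ratio after the chase, and a ratio that rises after the label is withdrawn gives no half-life. Bax reads fell over the same time, with new RNA (CPM times ratio) at means of 83.8, 80.4 and 72.8 CPM at 0, 90 and 180 min and the remainder at 100.5, 84.2 and 65.4 CPM. For the other 8 genes the remainder rose in all 6 Ctrl pairs by 180 min. Mdm2 new RNA was at means of 873, 884 and 470.2 CPM and its remainder at 15.4, 336 and 546 CPM. Trp53inp1 new RNA was at 689.9, 823.5 and 636.5 CPM, with a remainder of 51.5, 253 and 511 CPM. For Cdkn1a new RNA dropped from 74.2 to 43.4 and 17.3 CPM, and the remainder rose from 2.68 to 30.0 and 38.2 CPM.

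**Figure D3:**
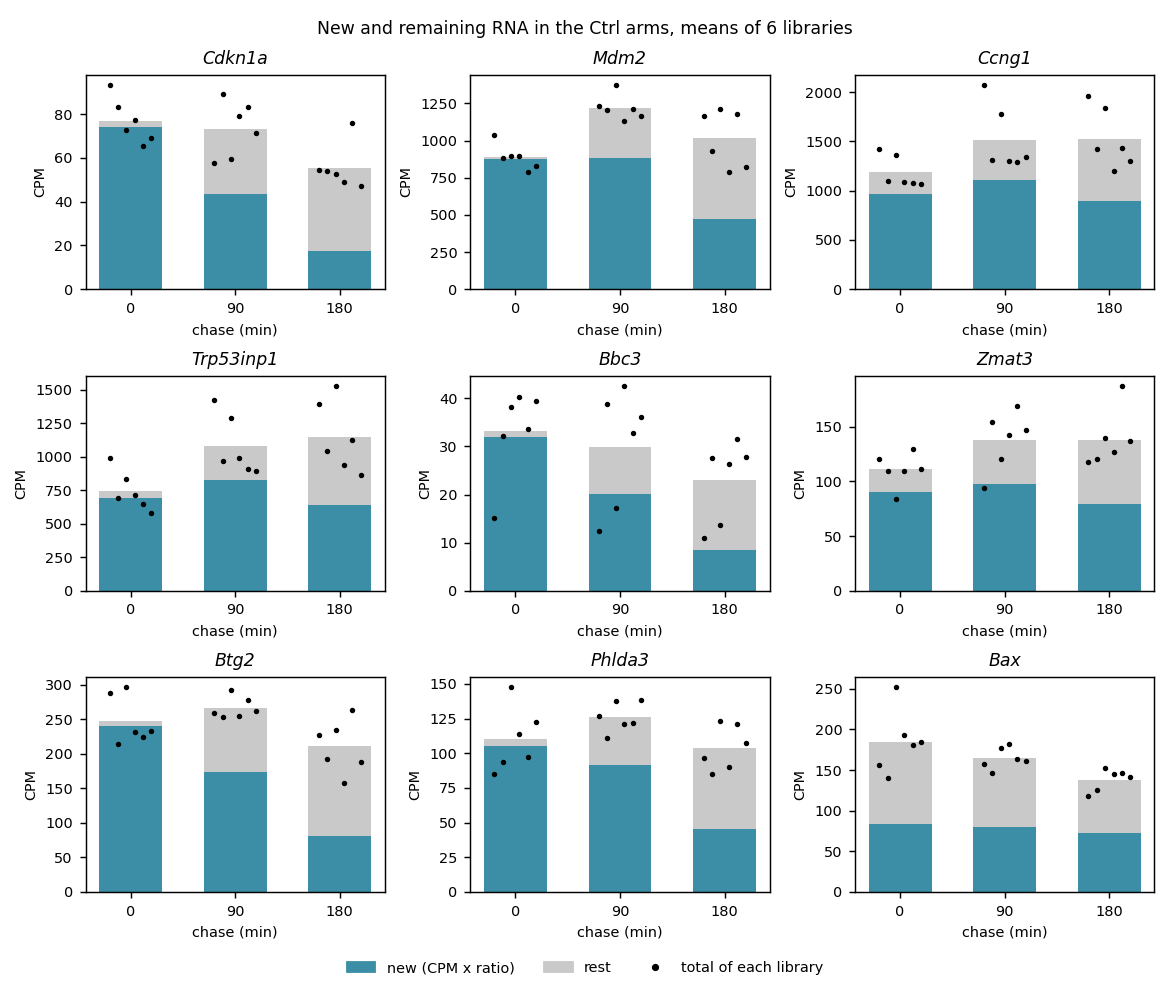
New RNA (CPM times MAP ratio, blue) and the remainder (grey) as means of the 6 Ctrl libraries at each chase time (x axis, min; y axis, CPM from 0), with the total of each library as a dot. For Cdkn1a the blue part shrinks from 74.2 to 17.3 CPM, while for Bax it stays between 72.8 and 83.8 CPM.

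Label loss did not pass the test between arms for any of the 9 genes in any line (limma on log2 MAP ratio, interaction of arm and chase time). The background was 0.471% of 8289 genes for METTL3, 0.0% of 8820 for YTHDC1 and 0.0% of 7251 for ZCCHC8, and none of the 9 had an unadjusted p under 0.05 in any line. Bbc3 fell under 100 reads in 2 METTL3 libraries (86 and 48 reads, dTAG replicate 1 at 0 and 180 min) and was not tested there. In the METTL3 line the ratio of Cdkn1a at 180 min was 28.3 and 27.1% in Ctrl and 11.9 and 27.1% with dTAG (replicates 1 and 2). Replicate 2 did not differ between arms, and replicate 1 had the lower value in dTAG. Its slope differed by -0.22 per h (SE 0.13, limma adjusted p = 0.89), and by -0.43 without replicate 2 against -0.00 without replicate 1. Over the 3 lines the differences in slope of the genes tested ran from -0.22 to 0.11 per h, both in the METTL3 line.

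At the end of the pulse none of the 9 passed the test between arms in any line, Bbc3 again not being tested for METTL3. Of all genes 13.2% were called for METTL3, 0.0227% for YTHDC1 and 0.165% for ZCCHC8. The ratio cannot exceed 100%, and Cdkn1a and Mdm2 were at 100% in both ZCCHC8 Ctrl libraries. A rise with dTAG could not be seen there, and little of one in other genes near 100%. Bax in the METTL3 line had the largest difference, with 39.9 and 48.3% in Ctrl and 34.4 and 35.2% with dTAG. Both dTAG libraries were below both Ctrl libraries (log2 difference -0.34, SE 0.15, limma adjusted p = 0.14, unadjusted p under 0.05 as for 23.8% of genes). In this line the median difference over all genes tested was -0.10, and 1021 genes were called as lower and 76 as higher. With the median of each library subtracted, a choice made after seeing the data, the split was 847 lower and 2017 higher, Bax was at -0.08 and Mdm2 was called at 0.28 (adjusted p = 0.0099), where its slope was called too (-0.12, adjusted p = 0.043).

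**Figure D4:**
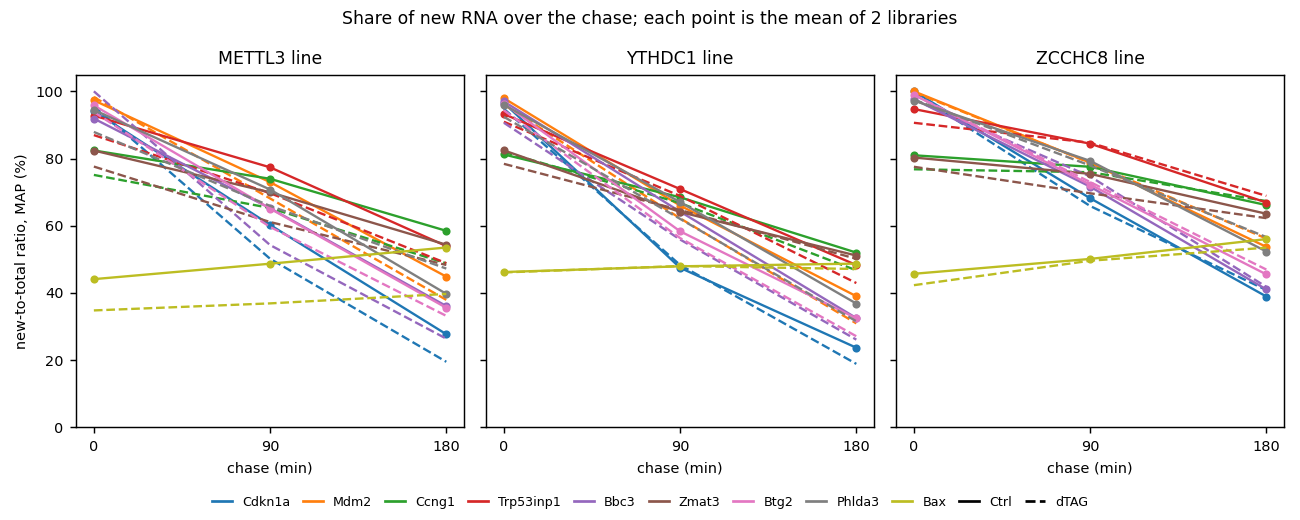
MAP new-to-total ratio in percent (y axis from 0) over the chase in min (x axis), as means of 2 libraries for each of the 9 genes, with Ctrl as solid and dTAG as dashed lines in the 3 lines. In each line and arm Cdkn1a falls furthest from 0 to 180 min, and Bax ends above its start.

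A wider set of genes of the pathway was read beside the 9. Of 36 other p53 targets present in all tables, 35 were tested in the METTL3 line, where 2 rose and 4 fell on depletion (median log2 fold change -0.06), against 11.2% of all genes called as higher and 8.73% as lower. Sertad1 (0.74, SE 0.15, edgeR adjusted p = 0.0065) and Tigar (0.69, SE 0.088, adjusted p = 5.26e-04), which lowers glycolytic flux, rose, and Fas (-0.82, SE 0.21, adjusted p = 0.016), a death receptor, was among those that fell. Tigar was at 56.5 ± 3.71 CPM (SD, n = 6) in Ctrl and 90.5 ± 7.86 CPM with dTAG. Of 15 regulators of p53, Trp73, the gene of the family member p73, was the single one that fell (log2 fold change -1.55, SE 0.28, adjusted p = 0.0032). Of 12 cell cycle genes, Birc5 rose (0.29) and Cdc25c fell (-0.83). In the YTHDC1 line Ankra2 rose (0.66, SE 0.12, adjusted p = 0.011) and no other gene of these lists was called (5.1% of all genes). In the ZCCHC8 line 3 of 33 other targets rose and 8 fell, 2 of 15 regulators rose and 3 fell, and 1 of 12 cell cycle genes rose and 5 fell, against 20.1% of all genes called as higher and 19.5% as lower. Plk3, a polo-like kinase, rose by 0.99 (SE 0.078, adjusted p = 2.30e-10) from 21.3 ± 10.2 to 41.0 ± 18.6 CPM, and Sertad1 by 0.50 (adjusted p = 9.04e-06). Susd6 fell by 0.53 and Ankra2 by 0.43 on the log2 scale, and among the regulators Trp53bp1 rose by 0.33 and Ppp1r13l, an inhibitor of p53, fell by 0.92. Trp53 was at 407 ± 44.7 CPM in Ctrl and 411 ± 65.6 CPM with dTAG here (0.04, adjusted p = 0.60).

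The other targets were also followed over the chase in Ctrl libraries. At 180 min 19 of 35 had risen and 5 had fallen, where 26.2% of all genes were called as higher and 24.1% as lower. The median change was 0.32 (log2) against -0.03 over all genes tested. At 90 min 13 had risen and none had fallen (median 0.28, all genes -0.03), where 10.1% were called as higher and 4.4% as lower. Fas (1.52, SE 0.17, edgeR adjusted p = 1.80e-06), Apaf1 (1.28), which builds the apoptosome, Rrm2b (1.12), a subunit of ribonucleotide reductase, and Perp (1.00) were among those that had risen at 180 min. Gdf15 (-1.01, adjusted p = 0.0055), a stress-responsive cytokine, Lif (-0.89), Plk2 (-0.43), Ascc3 (-0.41) and Sesn2 (-0.31) were the 5 that fell. Trp53 was at -0.57 (SE 0.38, adjusted p = 0.22). Among 12 cell cycle genes none rose and 4 fell. Of 5 fibroblast markers that could be tested, 2 fell at 180 min and none was called in any dTAG comparison within a line. The 6 stem cell markers had 1 rise and 2 falls at 180 min. These values describe the lists and do not test them.

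The 9 genes did not move as one across the libraries. With each line's own mean subtracted, the Pearson correlation of log2(CPM + 1) over 36 libraries was above 0 for 28 of 36 gene pairs, with a median of 0.30. Ccng1 and Trp53inp1 were most alike (0.92), and Bbc3 and Ccng1 least alike (-0.68). The libraries share depth, replicate and chase time, so these values describe the libraries. The share above 0 among other gene pairs is not given here. Cdkn1a was most like Bax (0.70) and Bbc3 (0.65) among the 9, and least like Trp53inp1 (-0.39). Among 10907 genes with a mean of at least 5 CPM the 5 most like Cdkn1a were Fzd10 (0.88), Zfp750 (0.88), Tsku (0.87), Rnf10 (0.86) and Cops7a (0.85). Of the 9, Bax came highest in that order, at rank 347, followed by Bbc3 at rank 595.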

How the data were processed

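Per the labels and the methods, the authors removed ribosomal reads, mapped what remained with STAR 2.5.2b to mm10, keeping unique end-to-end hits under a mismatch limit, and quantified each line and replicate with GRAND-SLAM. Libraries were TruSeq stranded total RNA; the GRAND-SLAM version and the use of strand are not given in the sources used here. The deposited read counts are raw counts per gene. The deposited new-to-total ratio is a fraction from 0 to 1 (MAP, posterior mean and quantiles). The deposited conversions and T coverage are signal sums over reads, from which T-to-C rates were computed. The gene length, too, is as deposited. A further 180 library columns were not used here.

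Counts were tested with edgeR 4.0.16 (TMM, filterByExpr, robust quasi-likelihood F test) with chase time as a factor in each line, with line and chase time as factors in the Ctrl libraries, and over all 36 libraries with line by chase time and line by arm for differences between lines. Log2 MAP ratios were tested with limma 3.58.1 for genes that reached 100 reads and a ratio of 0.02 throughout a line. Benjamini-Hochberg adjustment covered all genes tested, with a threshold of 0.05. DESeq2 1.42.0 was an alternative. CPM, computed here, are reads scaled to the library total over named genes, with that total adjusted by TMM factors over the 36 libraries. Both models were tested on simulated data first. Errors there were drawn independently for each library, so the pairing of libraries by replicate number was not covered. R was version 4.3.3 and Python 3.11.15. Gene positions in GENCODE M21 (mm10) gave the overlaps.

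Per the reporting summary of the study, the wells of a biological replicate came from 1 batch of cells shared out over the conditions at random, and RNA-seq repeats of a clone were independent. The labels do not give this. Same-numbered Ctrl and dTAG libraries deviated together from their group means (correlations of 0.739 to 0.87 for METTL3, 0.806 to 0.868 for YTHDC1, 0.295 to 0.321 for ZCCHC8, at the 3 times), so the numbers pair the libraries. Libraries of 1 replicate thus share their cells across chase times, and fits without the block treat them as separate. The block takes out only what both arms of a replicate share. Fits of the response to dTAG with the block thus still treat the chase libraries of 1 replicate and arm as separate. The members and lists were chosen with earlier results of these data known. Named are the 9 members and, from the other lists, the 3 largest rises and falls past the threshold per line with a mean of at least 5 CPM, plus Trp53; list genes named for the chase were chosen after their values were seen. The 90 min contrast and the median-subtracted ratios were added after seeing the data. Alternatives were RLE normalization, no filter on low counts, the replicate block, each replicate left out, DESeq2, chase libraries summed, all 36 libraries, the posterior mean and a minimum of 50 reads.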

Additional observations from a re-analysis of the deposited data

Results flagged for a closer look

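Among the 9 genes 4 responses to dTAG, of 3 genes, differed between lines, each found by the interaction test over all 36 libraries. The response of Mdm2 was lower in the METTL3 than in the YTHDC1 line (log2 difference -0.44, SE 0.14, edgeR adjusted p = 0.022), with dTAG below Ctrl in 5 of 6 METTL3 pairs and 2 of 6 YTHDC1 pairs, and 20.2% of all genes were called. Without replicate 1 it was not past the threshold (adjusted p = 0.066). Cdkn1a differed between the same lines (-0.63, SE 0.21, adjusted p = 0.030), with dTAG below Ctrl in 5 of 6 and 0 of 6 pairs. Mdm2 also had a lower response in the ZCCHC8 than in the YTHDC1 line (-0.41, SE 0.14, adjusted p = 0.047), where 14.3% of all genes were called. That call was lost with RLE normalization (adjusted p = 0.0998), without the filter on low counts (0.099), without replicate 1 (0.15) and without replicate 2 (0.099). Btg2 had a higher response in the ZCCHC8 than in the METTL3 line (0.49, SE 0.15, adjusted p = 0.014), with dTAG above Ctrl in 6 of 6 ZCCHC8 pairs and 1 of 6 METTL3 pairs, and 23.4% of all genes were called. Each pair of comparisons shares a line. Groups of 2 libraries are too small for a search for single libraries far from their group.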

How the results depend on the processing

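Of 99 recomputed counts of genes called among the 9, 69 stayed within 1.5 times the reported count and 30 moved. With the replicate block the count was 5 for METTL3 depletion, 1 for YTHDC1 depletion, 5 for the METTL3 with YTHDC1 responses, 2 for ZCCHC8 with METTL3, 8 and 5 at 180 and 90 min, and 2, 3 and 6 for Ctrl levels (METTL3 with YTHDC1, ZCCHC8 with YTHDC1, ZCCHC8 with METTL3), and it moved no other count by over 1.5 times. With 1 replicate left out it was 5 to 6 for METTL3 depletion, 0 to 2 for YTHDC1 depletion, 4 to 5, 0 to 0 and 3 to 3 for the responses (METTL3 with YTHDC1, ZCCHC8 with YTHDC1, ZCCHC8 with METTL3), 5 to 8 at 180 min, 3 to 6 at 90 min, 0 to 2 and 2 to 4 for Ctrl levels of METTL3 and ZCCHC8 with YTHDC1, and 0 to 1 for METTL3 label loss. DESeq2 gave 2 for METTL3 depletion, RLE normalization and no filter gave 0 for ZCCHC8 with YTHDC1 responses, and median-subtracted ratios gave 1 each for METTL3 label loss and pulse end. Signs turned 21 times among single genes, 20 of them with 1 replicate left out, where the 2 log2 values were -0.37 and 0.0090 (Trp53inp1), -0.28 and 0.22 (Phlda3) and -0.51 and 0.11 (Bax) for METTL3 depletion. They were -0.0076 and 0.16 (Mdm2), -0.082 and 0.036 (Trp53inp1), -0.0014 and 0.084 (Bbc3), -0.049 and 0.097 (Btg2), -0.024 and 0.14 (Phlda3) and -0.014 and 0.015 (Bax) for YTHDC1, and -0.047 and 0.032 (Ccng1), -0.11 and 0.0037 (Zmat3) and -0.077 and 0.0066 (Phlda3) for ZCCHC8. For Bax they were -0.54 and 0.081 between METTL3 and YTHDC1 responses and -0.087 and 0.62 between ZCCHC8 and METTL3. Phlda3 had -0.17 and 0.094 at 180 min, and 0.0496 with all 36 libraries in the fit. Ctrl levels of ZCCHC8 with YTHDC1 had -0.33 and 0.060 (Ccng1), -0.0496 and 0.69 (Bbc3) and -0.21 and 0.20 (Phlda3), those of Cdkn1a in ZCCHC8 with METTL3 -0.255 and 0.24, and the pulse-end ratio of Mdm2 in METTL3 -0.013 and 0.057. Over all genes the calls for METTL3 depletion went from 2920 to 7059 with the block, 7524 and 5764 without replicate 1 or 2 and 0 with chase libraries summed, and for YTHDC1 from 737 to 3888, 3483, 1368 and 0 (1158 by DESeq2). For ZCCHC8 they went from 5628 to 3509 without replicate 2. With the block the responses went from 3097, 2193 and 3597 to 6472, 4914 and 6612, the Ctrl levels from 345, 2044 and 4406 to 2071, 6819 and 7816, and the 90 min chase from 2125 to 4897. METTL3 label loss went from 39 to 99 with the block, 24 and 450 without replicate 1 or 2 and 1172 median-subtracted, and the METTL3 pulse end from 1097 to 607 without replicate 1 and 2864 median-subtracted. Without replicate 1 the responses had 6487, 4406 and 6365 calls and the 90 min chase 5415. The Ctrl levels had 2162 and 166, then 4356 and 5692, without replicate 1 or 2, and ZCCHC8 with METTL3 had 6691 without replicate 2. In the label tests of YTHDC1 and ZCCHC8, with 0 to 12 calls, no alternative called more than 184 genes. The cause was not tested. Depth limits Bbc3 most, with 48 reads in its lowest library.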
